A study of Mus musculus with 58 samples.

Results

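The 10 genes described here are Ppif, Ppp1r21, Pqbp1, Basp1, Celf4, Rab34, Tcea2, Ung, Car12 and Napepld, out of 18088 genes in the deposited table. They were picked by symbol for changes under lithium in an earlier look at the same libraries, and the rule names neither the reference nor a numerical threshold. Every comparison with lithium libraries in it, whether the reference is vehicle or fluoxetine, is therefore given as a description: whether a gene passed is stated as the fit gave it, and supports nothing. All 10 were among the 16606 genes tested, for which a mean level of 10 was required.

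The libraries came from prefrontal cortex of C57BL/6J mice at postnatal day 25. HT mice carry a knock-in allele of Tbl1xr1 on 1 chromosome, and WT mice carry none. The TBL1XR1 protein belongs to the corepressor complexes built around NCoR and SMRT. Dams were given lithium, fluoxetine (a serotonin reuptake inhibitor) or vehicle, and the pups took up the agent in milk from day 3 to day 24. Females and males of HT vehicle, HT fluoxetine, HT lithium, WT vehicle and WT fluoxetine had 5 libraries each, and those of WT lithium had 4 each, which gave 58 libraries in 12 groups. The labels name neither dam nor litter and do not state whether libraries are separate animals, so errors measure the spread between libraries, and litter and agent cannot be told apart.

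Lithium is a mood stabiliser that inhibits glycogen synthase kinase 3 and the phosphatases of the inositol cycle. Kinase inhibition stabilises beta-catenin, the coactivator of TCF and LEF factors, and a slower inositol cycle limits signalling through phosphoinositides and protein kinase C. The 10 genes belong to no single pathway. Of these, 4 encode nuclear or RNA-binding proteins, 3 act on membranes, endosomes or cilia, and 3 encode enzymes of mitochondria, the cell surface or lipid metabolism.

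Levels are normalised read counts, that is, reads per gene after the authors' scaling by a library-wide size factor. Changes are differences of log2(value + 1) with the standard error (SE) of a linear model over all 58 libraries, averaged with equal weight for females and males. A gene is said to have passed, risen or fallen when its adjusted p in limma was under 0.05. The libraries held 22.9 to 35.0 M reads, with a median of 26.7 M. Tbl1xr1 itself was at 2276 to 2747 in the 30 HT libraries and at 1817 to 2279 in the 28 WT libraries, so that only the edges of the genotypes met. All 9 markers of cortical excitatory neurons were present, with a summed level between 47736 and 68673, and none of them was at 0 throughout. The 2 libraries that stood apart were rich in choroid plexus genes: the summed level of 8 choroid plexus genes was 33182 in WT vehicle female 4 and 25602 in HT lithium male 1, against at most 497.1 in the other 56.

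Promoter sequences, from 250 bases before to 50 bases after the start of transcription, were taken for 8 of the 10 genes from RefSeq (GRCm38.p6). Tcea2 was not matched and Celf4 was left out of the search, so the promoters counted below include neither gene. The 4 shown were taken because they belong to the gene of smallest p that rose (Ppif), the gene of smallest p that fell (Ppp1r21), the most abundant gene per length (Basp1) and the gene with the largest change (Car12) in HT. Capitals mark matches to motifs searched on both strands, namely the GC box GGGCGG, the ETS site CCGGAAGT and the CCAAT box, and adjoining capitals can be overlapping GC boxes.
Ppif promoter, chr14:25693920-25694219, plus strand: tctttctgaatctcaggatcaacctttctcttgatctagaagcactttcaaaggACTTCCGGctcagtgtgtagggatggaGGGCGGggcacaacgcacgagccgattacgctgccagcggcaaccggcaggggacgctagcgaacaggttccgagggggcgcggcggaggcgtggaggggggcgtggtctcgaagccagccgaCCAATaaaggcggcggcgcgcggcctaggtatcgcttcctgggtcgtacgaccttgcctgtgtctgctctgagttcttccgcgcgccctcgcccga
Ppp1r21 promoter, chr17:88529874-88530173, plus strand: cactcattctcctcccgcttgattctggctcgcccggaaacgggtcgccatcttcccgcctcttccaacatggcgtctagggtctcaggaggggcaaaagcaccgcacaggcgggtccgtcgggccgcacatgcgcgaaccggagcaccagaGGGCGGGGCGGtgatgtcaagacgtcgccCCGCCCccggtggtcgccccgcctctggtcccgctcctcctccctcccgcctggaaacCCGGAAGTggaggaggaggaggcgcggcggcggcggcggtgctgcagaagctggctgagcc
Basp1 promoter, chr15:25413715-25414014, minus strand: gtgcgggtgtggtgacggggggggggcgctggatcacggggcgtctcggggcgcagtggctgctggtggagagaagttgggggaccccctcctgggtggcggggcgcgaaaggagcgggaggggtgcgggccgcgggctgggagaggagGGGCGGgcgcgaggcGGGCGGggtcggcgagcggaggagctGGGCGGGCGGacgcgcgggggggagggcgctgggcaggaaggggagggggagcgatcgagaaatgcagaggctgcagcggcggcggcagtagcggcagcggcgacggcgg
Car12 promoter, chr9:66713436-66713735, plus strand: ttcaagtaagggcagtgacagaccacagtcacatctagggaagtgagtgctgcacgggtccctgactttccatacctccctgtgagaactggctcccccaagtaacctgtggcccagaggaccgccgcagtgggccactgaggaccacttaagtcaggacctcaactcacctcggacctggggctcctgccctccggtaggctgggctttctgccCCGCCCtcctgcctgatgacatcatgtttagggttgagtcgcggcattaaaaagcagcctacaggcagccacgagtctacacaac
The Ppif promoter holds a GC box, an ETS site and a CCAAT box, and that of Ppp1r21 holds GC boxes and an ETS site. The Basp1 promoter consists to 78.0% of G and C and contains 38 CpG, against 58.3% and 9 CpG in that of Car12. Over 32851 RefSeq promoters the median was 52.7% G and C and 7 CpG. Rab34 and Pqbp1 have 2 promoters each, so the 8 genes have 10. The GC box was in 7 of these 10 promoters and in 35.7% of all promoters. The ETS site was in 2 of the 10, those of Ppif and Ppp1r21, and in 3.89% of all promoters. The CCAAT box was in 3 of the 10, of Ppif and Pqbp1, and in 37.4% of all promoters. A further 3 motifs matched in none of the 10 promoters: the TCF and LEF site CTTTGAT (3.73% of all promoters), the cyclic AMP response element TGACGTCA (1.79%) and the E-box CACGTG (7.15%). The NRF1 site was likewise in none of the 10, and in 4.60% of all promoters. A match is a stretch of letters and not a measured binding site.

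In HT mice, 5 of the genes were higher under lithium than under vehicle (Ppif, Rab34, Tcea2, Ung and Car12) and 5 were lower (Ppp1r21, Pqbp1, Basp1, Celf4 and Napepld). The changes were small, with Car12 up by 57.4% and Ung up by 52.9% at one end and Ppp1r21 down to 0.88 times vehicle at the other. All 10 passed, and 0.385% of all tested genes did (0.169% higher and 0.217% lower). Since the genes were picked for lithium changes, nothing is read from that count. By p they held ranks between 2 (Ppp1r21) and 56 (Ung) among the 64 genes that passed, so they are not simply the 10 of smallest p. Rank 1 belonged to Ctnnb1, the gene of beta-catenin, which is described below. In WT mice all 10 differences had the same sign as in HT, although that of Rab34 lay between -0.03 and 0.09 when single libraries were left out. In WT 1 gene, Ppp1r21, passed, against 0.0301% of all tested genes. At an unadjusted p under 0.05 there were 5 of the 10 in WT and 9.38% of all tested genes.

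**Figure D1:**
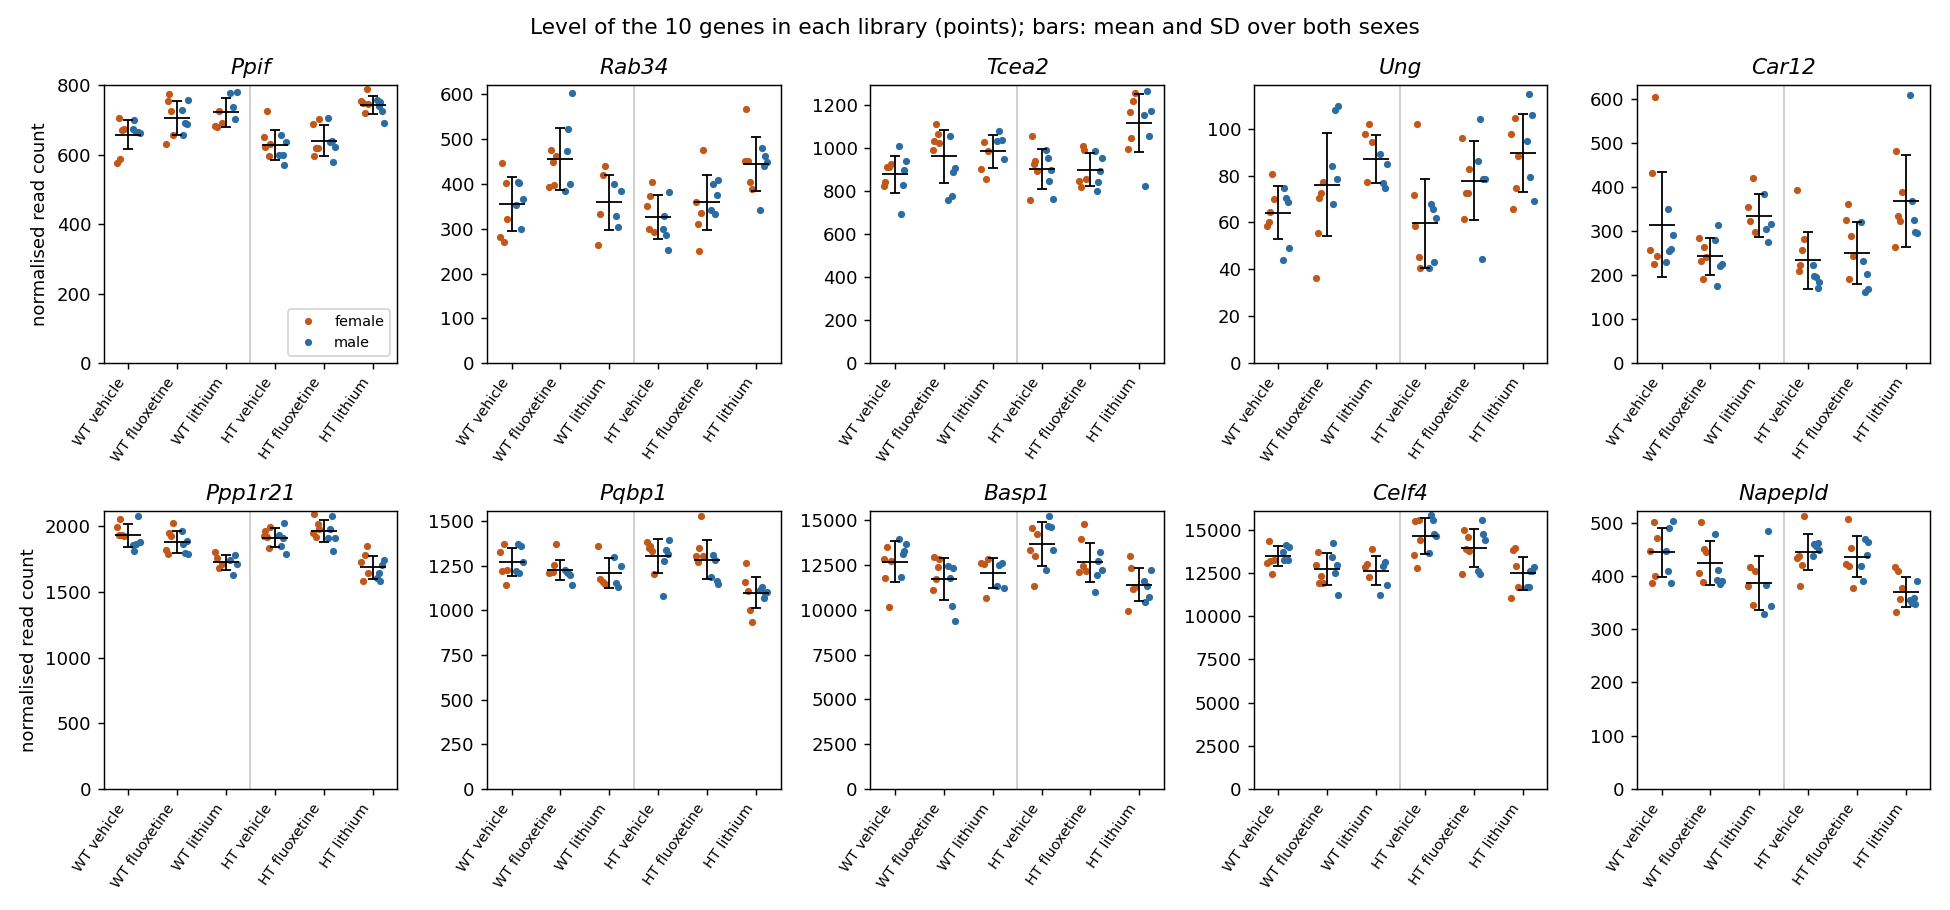
Normalised read count (vertical axes, linear, from 0) of each gene in all 58 libraries by genotype and agent, with females and males in different colours; horizontal bars are the mean and vertical bars the SD over both sexes. The upper 5 genes were higher and the lower 5 lower in HT lithium than in HT vehicle, and the columns of points overlap for every gene in HT.

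Among the genes of the nucleus and of RNA, Pqbp1 encodes polyglutamine-binding protein 1, a splicing-related protein whose loss causes X-linked intellectual disability (chromosome X, 7894519 to 7899269, minus strand). Pqbp1 lay at 1082 to 1393 with a median of 1335 in the 10 HT vehicle libraries and at 937 to 1267 with a median of 1106 in the 10 HT lithium libraries. The low HT vehicle value was that of male 1, and the other 9 lay between 1204 and 1393. Pqbp1 fell by 15.7% in HT, with a log2 change of -0.25 ± 0.04 (SE), and all 10 lithium libraries were below the vehicle mean of their sex. In WT it was at 1142 to 1371 under vehicle and at 1132 to 1359 under lithium, nearly the same range, with a log2 change of -0.07 ± 0.05.

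Tcea2 encodes a tissue-restricted member of the TFIIS family, which helps stalled RNA polymerase II resume transcription (chromosome 2, 181680310 to 181688071, plus strand). Its level was 760 to 1057 (median 909) in HT vehicle and 824 to 1263 (median 1158) in HT lithium. Of the 10 lithium libraries, 9 lay above the vehicle mean of their sex, the exception being male 2 at 824. Tcea2 rose by 23.3% in HT, a log2 change of 0.30 ± 0.07. In WT it lay at 691 to 1007 under vehicle and at 854 to 1079 under lithium, and the log2 change was 0.17 ± 0.07 (95% interval 0.03 to 0.31).

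Ung encodes uracil-DNA glycosylase, which removes uracil from DNA as the first step of base excision repair (chromosome 5, 114130386 to 114139323, plus strand). It was the rarest of the 10 genes, with a mean of 71.8 reads per library and 30 to 120 reads in single libraries. At that depth counting alone gives a coefficient of variation of 11.8%, against 21.6% observed within groups. Ung was at 40.6 to 101.8 (median 60.0) in HT vehicle and at 65.7 to 114.7 (median 91.6) in HT lithium, and the single high vehicle value was that of female 3. In HT, Ung rose by 52.9%, a log2 change of 0.61 ± 0.15 with a 95% interval from 0.32 to 0.91. In WT the ranges were 44.0 to 80.7 and 74.6 to 101.8, which overlap only from 74.6 to 80.7, and the log2 change was 0.45 ± 0.16.

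Celf4 encodes a neuronal RNA-binding protein that controls the stability and translation of many synaptic mRNAs (chromosome 18). It was at 12791 to 15869 (median 14703) in HT vehicle and at 11032 to 13947 (median 12619) in HT lithium. In HT, Celf4 fell by 14.7%, a log2 change of -0.23 ± 0.05, and every lithium library was below the vehicle mean of its sex. The WT vehicle libraries lay at 12457 to 14331, with a median of 13255. In WT the lithium libraries were at 11234 to 13881, and the log2 change was -0.09 ± 0.05.

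Of the genes of membranes and traffic, Ppp1r21 encodes a subunit of the FERRY complex, which binds the small GTPase RAB5 on early endosomes and carries mRNAs along axons (chromosome 17, 88530118 to 88588367, plus strand). The HT vehicle females were at 1921, 1959, 1917, 1832 and 1992 and the males at 1935, 1850, 1911, 2024 and 1787. The HT lithium females were at 1728, 1586, 1783, 1848 and 1640 and the males at 1609, 1643, 1585, 1704 and 1741. Only the lithium female at 1848 reached into the vehicle range, at whose lower end stood the male at 1787. Ppp1r21 fell by 11.9% in HT, with a log2 change of -0.18 ± 0.03 (95% interval -0.24 to -0.12).

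The WT lithium females were at 1801, 1761, 1683 and 1711 for Ppp1r21 and the males at 1739, 1625, 1780 and 1709. The WT vehicle libraries started at 1809 and went up to 2078. Ppp1r21 was therefore the only one of the 10 genes whose lithium and vehicle libraries did not overlap, in WT but not in HT, and 0.0181% of all tested genes separated in this way. In WT the fall was 10.6%, and the log2 change was -0.16 ± 0.03. The WT result rests on few libraries, since Ppp1r21 no longer passed when any of 12 single libraries was left out: lithium females 1 and 2, lithium males 1, 2 and 4, vehicle females 1, 2, 4 and 5, and vehicle males 1, 4 and 5. Its log2 change stayed between -0.17 and -0.15 over all 18 such refits.

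Basp1 encodes a myristoylated protein of growth cones and presynaptic terminals that protein kinase C phosphorylates, related in function to GAP43 and MARCKS (chromosome 15, 25363277 to 25413764, minus strand). Per kilobase of exon it had the highest level of the 10 genes, 6154, followed by Celf4 at 1555, while Ung stood last at 13.8. The HT vehicle libraries were at 11339 to 15231 (median 13774) and the HT lithium libraries at 9919 to 12976 (median 11303). Basp1 fell by 16.4% in HT, a log2 change of -0.26 ± 0.06. In WT it was at 10166 to 13950 under vehicle and at 10675 to 12850 under lithium, fully inside the vehicle range, with a log2 change of -0.07 ± 0.06.

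Rab34 encodes a small GTPase of the Golgi and of ciliary vesicles that is needed to build primary cilia (chromosome 11, 78188430 to 78192193, plus strand). The HT vehicle libraries were at 252 to 405 (median 315) and the HT lithium libraries at 341 to 568 (median 450). All 10 lithium libraries were above the vehicle mean of their sex, the lowest of them being male 1. Rab34 rose by 35.8% in HT, a log2 change of 0.44 ± 0.10. In WT the 8 lithium libraries were at 264 to 440 and the 10 vehicle libraries at 272 to 446, and the log2 change was 0.02 ± 0.11, with 4 of 8 libraries above the vehicle mean.

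Among the enzymes, Ppif encodes cyclophilin D, a prolyl isomerase of the mitochondrial matrix that promotes opening of the permeability transition pore (chromosome 14, 25694154 to 25700468, plus strand). The HT vehicle females were at 651.6, 621.2, 724.9, 596.0 and 630.1 and the males at 597.9, 656.5, 599.5, 570.8 and 635.4. The HT lithium females were at 755.7, 748.7, 718.5, 789.7 and 744.6 and the males at 756.8, 739.4, 751.0, 726.4 and 691.6. A single vehicle library, female 3 at 724.9, reached into the lithium range. Ppif rose by 18.3% in HT, a log2 change of 0.24 ± 0.04 (95% interval 0.16 to 0.32). In WT it was at 576 to 705 under vehicle and at 679 to 781 under lithium, and the log2 change was 0.13 ± 0.04, with 8 of 8 lithium libraries above the vehicle mean of their sex.

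Car12 encodes carbonic anhydrase XII, an enzyme of the cell surface that interconverts carbon dioxide and bicarbonate (chromosome 9, 66713686 to 66766845, plus strand). The HT vehicle libraries were at 172 to 394 (median 216) and the HT lithium libraries at 264 to 610 (median 330). Car12 rose by 57.4% in HT, a log2 change of 0.65 ± 0.15, the largest of the 10. Both of its highest values in the series, 609.7 and 605.7, were those of the libraries rich in choroid plexus genes, HT lithium male 1 and WT vehicle female 4. Without both of those libraries the log2 change of Car12 was 0.56 in HT and it still passed; without HT lithium male 1 alone it was also 0.56 and did not pass, nor did it with the choroid plexus level as a covariate (0.52). In WT the lithium libraries were at 274 to 421 (median 319) and the vehicle libraries at 225 to 606 (median 258). The WT log2 change was 0.15 ± 0.16, and 0.26 without both libraries.

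Napepld encodes the phospholipase D that releases anandamide and other N-acylethanolamines from membrane lipids (chromosome 5, 21662901 to 21701396, minus strand). The level was 381 to 513 (median 443) in HT vehicle and 332 to 417 (median 358) in HT lithium, where each of the 10 libraries was below the vehicle mean of its sex. Napepld fell by 17.0% in HT, a log2 change of -0.27 ± 0.06. In WT the log2 change was -0.20 ± 0.07 (95% interval -0.34 to -0.07), with vehicle at 386 to 504 and lithium at 329 to 485, and 7 of the 8 WT lithium libraries were below the vehicle mean.

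The HT count depended on the model and on single libraries. Only 3 of the 10 genes (Ppif, Ppp1r21 and Napepld) passed when the spread was taken only from the groups compared, and 5 passed with the choroid plexus level as a covariate. Leaving out single libraries left between 6 and 10, the 6 being reached without HT lithium female 5, HT lithium male 3 or HT vehicle male 4. Ppif, Ppp1r21, Pqbp1, Basp1 and Celf4 passed in all 20 of these refits, Tcea2 in 16, Car12 in 15, Rab34 in 13, and Ung and Napepld in 8 each. Tcea2 (0.27 to 0.35) no longer passed without lithium female 5, lithium male 3, vehicle female 1 or vehicle male 5. Car12 (0.56 to 0.72) no longer passed without lithium females 2 or 5, lithium male 1, vehicle female 2 or vehicle male 4. Rab34 (0.40 to 0.48) no longer passed without lithium female 2, lithium males 2 or 3, vehicle females 2 or 5, or vehicle males 3 or 4. For Ung (0.54 to 0.71) these were lithium females 1, 3 and 5, lithium males 1 to 4, vehicle females 2, 4 and 5, and vehicle males 1 and 4. For Napepld (-0.29 to -0.24) they were lithium females 2, 4 and 5, lithium males 1 to 4, vehicle females 1 and 5, and vehicle males 2 to 4. No estimate of the 10 genes changed sign in these HT refits. Ung also did not pass without both choroid-rich libraries or with the replicate number as a block, and Tcea2 did not with each library centred on its median.

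In HT mice, females and males each gave the same 5 positive and the same 5 negative differences. The differences of Car12 were 0.40 ± 0.21 in females and 0.91 ± 0.21 in males. With sexes taken singly none of the 10 passed for lithium against vehicle in HT, where the background was 0.00602% of genes in females and 0% in males. The lithium effect did not pass for a difference between males and females in any of the 10 genes in HT or WT by limma, edgeR or DESeq2, with none at an unadjusted p under 0.05. Of all tested genes 0% passed in either, and 3.13% in HT and 1.82% in WT had an unadjusted p under 0.05.

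The difference of the lithium effect between the genotypes contains the lithium libraries, and the genes were picked for lithium changes, so its counts are descriptions as well. With vehicle as the reference, no gene of the 10 passed by limma, edgeR or DESeq2 (0% of all tested genes in limma). At an unadjusted p under 0.05 there were 5 of the 10 (3.67% of all tested genes), namely Pqbp1, Basp1, Celf4, Rab34 and Car12, and nothing is read from that count. The Rab34 difference (HT minus WT) was 0.42 ± 0.15 with a 95% interval from 0.12 to 0.72, and that of Ppp1r21 was -0.02 ± 0.04 with an interval from -0.11 to 0.07. The passing of all 10 genes in HT and of 1 in WT is thus not shown to be a difference between the genotypes.

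Fluoxetine served as the other reference. The lithium libraries in this comparison are those already used, so it is no independent check. In HT mice 6 of the 10 genes passed, with 1.95% of all tested genes (0.927% higher and 1.02% lower): Ppif (log2 change 0.21 ± 0.04), Tcea2 (0.31 ± 0.07) and Car12 (0.57 ± 0.15) were higher, and Ppp1r21 (-0.22 ± 0.03), Pqbp1 (-0.22 ± 0.05) and Napepld (-0.24 ± 0.06) were lower. The other 4 had the same signs as against vehicle, at 0.31 ± 0.10 for Rab34, 0.21 ± 0.15 for Ung, -0.15 ± 0.06 for Basp1 and -0.16 ± 0.05 for Celf4. For Ppp1r21 the HT fluoxetine libraries lay at 1807 to 2092 and the HT lithium libraries at 1585 to 1848, which overlap only from 1807 to 1848. With the sexes taken singly in the same model, Ppp1r21 and Pqbp1 passed in HT females (0.0361% of all tested genes) and Ppp1r21 in HT males (0.120%). The Car12 call against fluoxetine ended with the choroid plexus level as a covariate (0.43), without both choroid-rich libraries (0.48) and without any of 8 single libraries (fluoxetine females 3 and 5, fluoxetine males 3 to 5, lithium females 2 and 5, and lithium male 1). The Napepld call ended without any of 12 (fluoxetine females 2 and 4, fluoxetine males 3 to 5, lithium females 2, 4 and 5, and lithium males 1 to 4), with log2 changes between -0.26 and -0.21.

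In WT mice 2 of the 10 genes passed against fluoxetine, beside 4.83% of all tested genes (2.62% higher and 2.21% lower), and 4 had an unadjusted p under 0.05, as 20.4% of all tested genes had. Ppp1r21 was lower by a log2 change of -0.12 ± 0.03. Rab34 was also lower, at -0.35 ± 0.11, whereas in HT its sign was the opposite. The WT fluoxetine females were at 393.9, 476.8, 449.7, 398.2 and 462.1 for Rab34 and the males at 383.6, 474.7, 521.8, 399.0 and 603.4. Their mean was the highest Rab34 level of any genotype and agent, just above HT lithium, and 1 of the 8 WT lithium libraries lay above the fluoxetine mean of its sex. The Rab34 effect against fluoxetine differed between HT and WT by 0.66 ± 0.15, and no gene of the 10 passed for such a difference, with 0.00602% of all tested genes. At an unadjusted p under 0.05 there were 7 of the 10 and 13% of all, and edgeR and DESeq2 also called none. These counts again contain the lithium libraries and support nothing. The Rab34 call in WT ended when any of 12 single libraries was left out (fluoxetine females 2 to 5, fluoxetine males 2, 3 and 5, lithium females 1 and 2, and lithium males 2 to 4), with log2 changes between -0.40 and -0.28. Car12 was at 0.47 ± 0.16 in WT against fluoxetine, with 8 of 8 lithium libraries above the fluoxetine mean of their sex. It did not pass there, but it did with array weights, with the striatum or the choroid plexus level as a covariate and without both choroid-rich libraries, and the choroid covariate ended the Rab34 call.

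**Figure D2:**
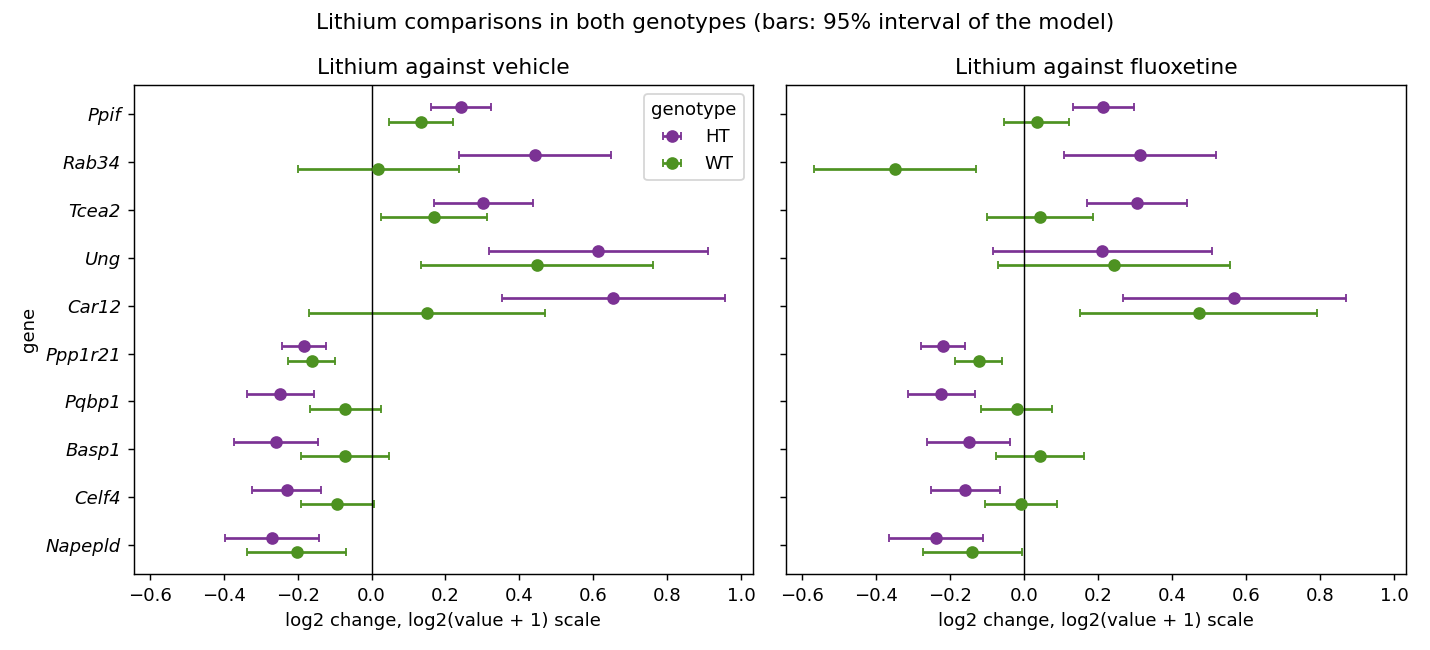
Log2 change on the log2(value + 1) scale (horizontal axis) of each gene for lithium against vehicle (left) and lithium against fluoxetine (right) in HT and WT mice; points are estimates and bars the 95% interval of the model. The HT points lie further from 0 than the WT points for all 10 genes on the left, and the Rab34 points lie on opposite sides of 0 on the right.

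Fluoxetine against vehicle shares its libraries with the lithium comparisons, where they were the references. None of the 10 passed in HT by limma, edgeR or DESeq2 (0% of all tested genes, and at an unadjusted p under 0.05 1 of the 10 and 9.19% of all), and the median absolute log2 change was 0.05 against 0.06 over all genes. The exception by size was Ung, at 0.40 ± 0.15, with 8 of 10 fluoxetine libraries above the vehicle mean of their sex. In WT none passed by limma or edgeR (0.367% of all tested genes, and at an unadjusted p under 0.05 4 of the 10 and 13.4% of all), while DESeq2 called Rab34. Rab34 was 0.37 ± 0.10 higher there, with 10 of 10 fluoxetine libraries above the vehicle mean and an adjusted p of 0.0801. Car12 had a log2 change of -0.32 ± 0.15 in WT.

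The order of the 6 means per gene shows the same contrasts. HT lithium had the highest mean for Ppif, Tcea2, Ung and Car12 and the lowest for all 5 genes that fell. For Rab34 the highest mean was that of WT fluoxetine (456 ± 69, SD, n = 10), followed by HT lithium (444 ± 60, n = 10). Most neighbours in these orders were closer than 1 SD of the more variable of the pair. The exceptions were the step in Ppp1r21 from WT fluoxetine (1881) down to WT lithium (1726), that in Pqbp1 from WT lithium (1210) down to HT lithium (1099) and that in Rab34 from HT lithium (444) down to WT lithium (359).

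HT against WT under fluoxetine uses neither lithium nor vehicle libraries. Its libraries were the reference of the lithium comparisons with fluoxetine. None of the 10 passed by limma or edgeR, with 0.994% of all tested genes, while 5 had an unadjusted p under 0.05, where 18.3% of all tested genes did. DESeq2 called Ppif and Rab34. Both were lower in HT: Ppif by a log2 change of -0.14 ± 0.04 (adjusted p = 0.0645 in limma) and Rab34 by -0.35 ± 0.10 (adjusted p = 0.0649 in limma). The median absolute change of the 10 genes was 0.08 and that of all genes 0.07.

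Under vehicle and under lithium, HT and WT did not differ past the threshold in any of the 10 genes by limma, edgeR or DESeq2, with 0.0181% and 0.0120% of all tested genes. Unadjusted p-values under 0.05 were found for 2 of the 10 under vehicle (5.76% of all) and 3 under lithium (5.34% of all). Celf4 was 0.12 ± 0.05 higher and Car12 0.40 ± 0.15 lower in HT vehicle than in WT vehicle, and the latter WT group includes the choroid-rich library. Under lithium, Pqbp1 had a log2 difference (HT minus WT) of -0.14 ± 0.05 and Rab34 of 0.31 ± 0.11.

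Males and females could be compared over all groups, a contrast in which each agent and genotype enters for both sexes. None of the 10 genes passed by limma, edgeR or DESeq2, with 0.114% of all tested genes. An unadjusted p under 0.05 was found for 2 of the 10 and for 7.56% of all tested genes: Car12, with males 0.20 ± 0.09 lower on the log2 scale, and Ppp1r21, with males 0.04 ± 0.02 lower.

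How the genes varied among libraries of the same group was measured by the correlation of deviations from the group means, which no difference between groups can enter. P-values came from permutations within groups and were adjusted over 145 relations, 45 between pairs of the genes and 100 with summed marker lists, of which 52 passed. Basp1 and Celf4 varied most closely together, with r = 0.69 and rho = 0.67 over 58 libraries (adjusted p = 0.00029, permutation test, from the smallest p of 1e-05 that the permutations can give). Without the 2 libraries farthest from the median r was 0.63. In every such r, here and below, the deviations were taken from group means that still contained the 2 libraries. Ung varied against Celf4, with r = -0.54 and rho = -0.54 (adjusted p = 0.0017, permutation test; r = -0.51 without the 2 farthest libraries). Basp1 and Napepld had r = 0.51 and rho = 0.57 (adjusted p = 0.0023, permutation test; r = 0.50 without the 2 farthest).

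In all, 14 of the 45 pairs passed, 5 with a positive and 9 with a negative r. All 5 positive pairs moved the same way under lithium in HT and all 9 negative pairs moved in opposite ways. An absolute r of at least 0.3 was reached by 33.3% of the 45 pairs and by 28.7% of all pairs among 13696 genes (those with a mean of 50 or more), so the strength of these relations was near the background. Of the 15 pairs at that strength, 14 (93.3%) had the sign of the lithium directions. The same was true of 276 of 348 such pairs (79.3%) among the 54 other genes that passed for lithium in HT. The pairs share genes and the 58 libraries, so these shares are descriptions.

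**Figure D3:**
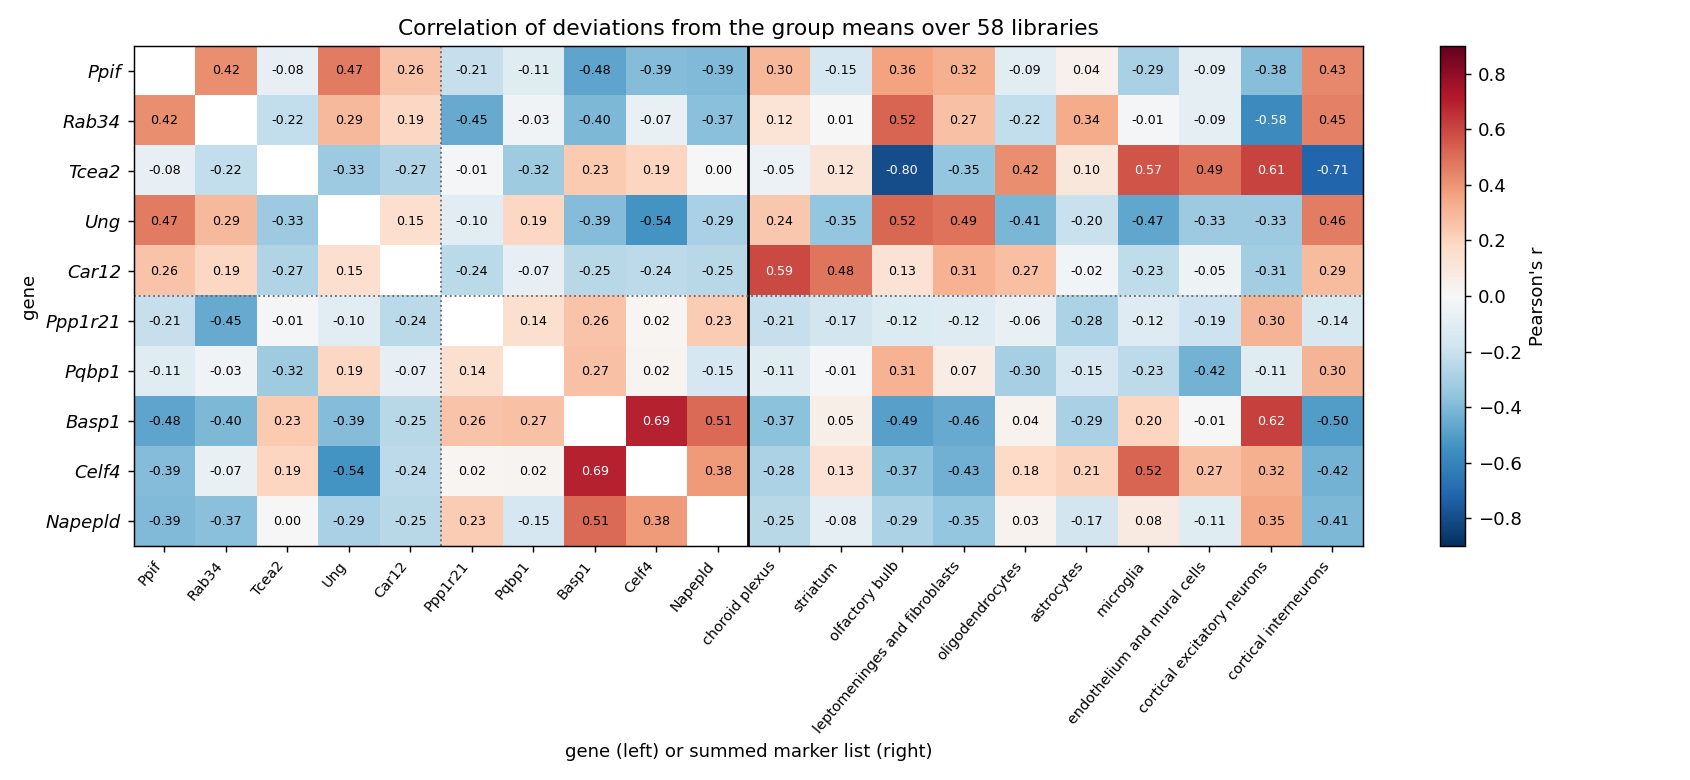
Pearson's r (colour scale and printed values) between deviations from group means over 58 libraries, for each gene (rows) with the other genes (left block) and with summed marker lists (right block); dotted lines part the genes that rose from those that fell in HT. Basp1 with Celf4 (0.69) and Tcea2 with olfactory bulb markers (-0.80) are the strongest of each block.

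Of the 100 relations with markers of other regions and cells, 38 passed, 19 positive and 19 negative. An absolute r of at least 0.3 was reached by 44 of the 100, and by 33.5% of relations between the same lists and all 13696 genes. For olfactory bulb markers alone it was reached by 7 of the 10 genes and by 49.7% of all genes. For interneuron markers these were 8 of the 10 and 46.4%, so such relations were common in these libraries. Tcea2 was lower in libraries with more olfactory bulb transcripts (r = -0.80, rho = -0.78, adjusted p = 0.00029, permutation test; r = -0.75 without the 2 farthest libraries) and with more interneuron transcripts (r = -0.71, rho = -0.66, adjusted p = 0.00029, permutation test; r = -0.63 without the 2 farthest libraries). The same library, WT vehicle male 2, had the highest sum of both lists (41274 and 37166), and whether the 2 relations are separate was not tested. The 10 olfactory bulb markers were all in the table, none at 0 throughout. Their sum ran from 6616 to 33342 in HT lithium, from 6446 to 27740 in HT vehicle, from 7815 to 32686 in WT lithium and from 7196 to 41274 in WT vehicle. The median of this sum, the measure behind the correlation, was 8835 under lithium and 9291 under vehicle in HT, and 14495 and 14667 in WT. The mean log2 level weighs the 10 markers equally. It was 0.33 higher under lithium than under vehicle in HT and 0.38 higher in WT, with none of the 10 called. The 2 measures of the list thus differed in direction, and Tcea2 was higher under lithium. With the mean log2 level of the olfactory markers as a covariate the log2 change of Tcea2 was 0.33 in HT and 0.20 in WT. Without it the changes were 0.30 and 0.17, and the part of tissue composition was not tested further.

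Car12 varied with choroid plexus genes (r = 0.59, rho = 0.39, adjusted p = 0.0072, permutation test). With the points of the 2 libraries rich in them dropped r was 0.37. The group means still contained both libraries, so this r is not free of them. It also varied with striatal markers (r = 0.48, rho = 0.44, adjusted p = 0.0059, permutation test; r = 0.42 without the 2 farthest libraries). The choroid sum had a median of 297 in HT lithium and 233 in HT vehicle, and of 244 in WT lithium and 257 in WT vehicle. The mean log2 level of its 8 genes differed between lithium and vehicle by 0.66 in HT and -0.61 in WT, with none called. Each of these differences contains 1 choroid-rich library, HT lithium male 1 (25602) and WT vehicle female 4 (33182), and is not a shift of the whole group. An absolute r of at least 0.3 with the choroid list was reached by 8.63% of all genes. With the choroid level as a covariate the log2 change of Car12 was 0.52 in HT, where it no longer passed, and 0.27 in WT.

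Basp1 and Rab34 stood at opposite ends for cortical excitatory neurons, with r = 0.62 (rho = 0.51, adjusted p = 0.00029, permutation test; r = 0.57 without the 2 farthest libraries) and r = -0.58 (rho = -0.60, adjusted p = 0.0014, permutation test; r = -0.57 without the 2 farthest). With this list an absolute r of at least 0.3 was reached by 9 of the 10 genes and by 49.9% of all genes, so such relations are not particular to these 2. The mean log2 level of the 9 excitatory markers was -0.15 for lithium against vehicle in HT and 0.04 in WT, with none called. Endothelial and mural markers were at -0.20 in HT and -0.18 in WT, also with none of 9 called. For lithium against fluoxetine the endothelial and mural markers were at 0.02 in HT and 0.005 in WT, and the excitatory markers at -0.08 and 0.12. The part of these shifts in the gene changes was not tested beyond the covariates named, and in bulk tissue fewer cells of a type and less RNA per cell cannot be told apart.

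**Figure D4:**
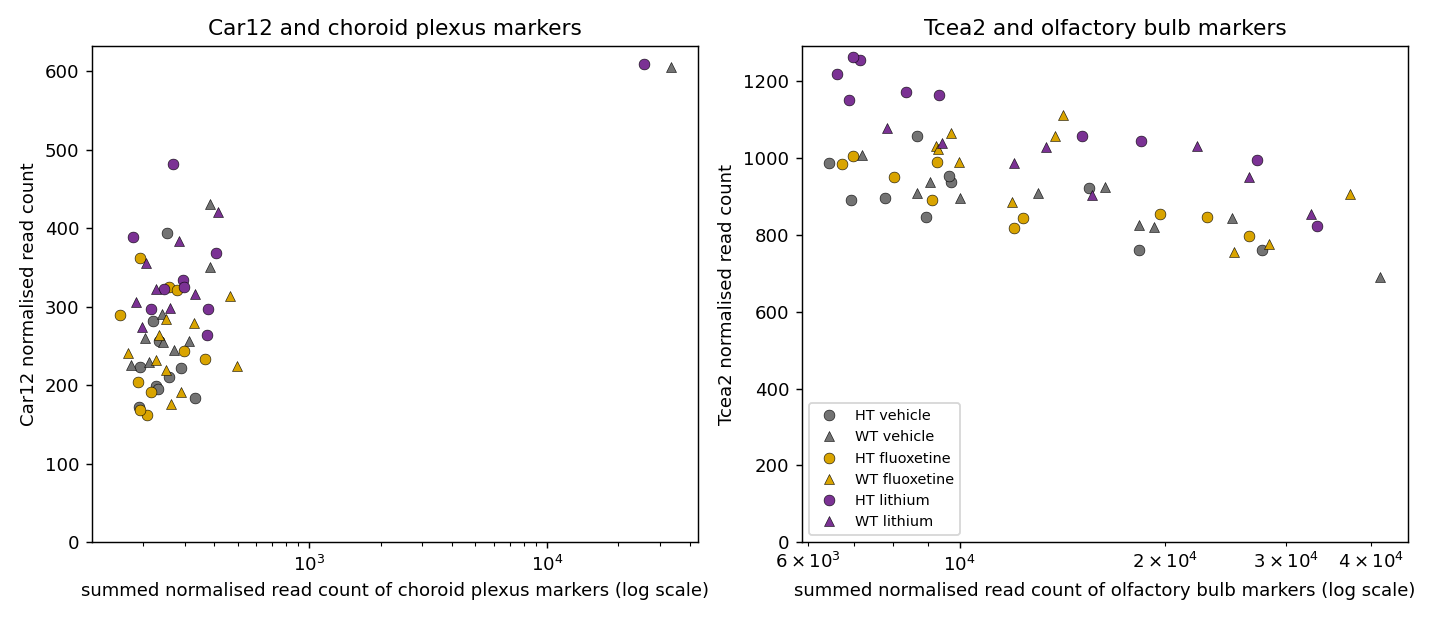
Normalised read count (vertical axes) of Car12 against the summed level of choroid plexus markers and of Tcea2 against that of olfactory bulb markers (horizontal axes, log scale), 1 point per library, coloured by agent and shaped by genotype. In the left panel 2 libraries stand alone at the right with Car12 near 606 and 610; in the right panel Tcea2 declines as the olfactory sum grows.

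For each gene, the genes of its pathway were counted without the gene itself. These lists were also drawn up with earlier results known. Of all tested genes 0.385% passed for lithium against vehicle in HT and 0.0301% in WT. At these shares a list of this size is likely to hold no passing gene, so nothing is read from a count of 0 here or below. For lithium against vehicle in HT, 0 of 3 growth-cone substrates of protein kinase C passed beside Basp1, with Marcks at -0.19 ± 0.08 and Gap43 at -0.10 ± 0.06. Their median change was -0.10, against 0.00 over all genes. Of 9 other CELF and ELAV-like RNA-binding proteins none passed beside Celf4, and 8 of the 9 had a negative sign, with Celf5 at -0.06 ± 0.03 and Elavl3 at -0.07 ± 0.03. Of 15 genes of the FERRY complex and RAB5 machinery none passed beside Ppp1r21; the subunit gene Tbck was at -0.13 ± 0.04 (adjusted p = 0.0801), and D6Wsu163e, which encodes a further subunit, at -0.09 ± 0.04.

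None of 20 base excision repair genes passed beside Ung, with 10 positive and 10 negative signs, and Smug1, a second uracil-DNA glycosylase, was at 0.15 ± 0.04 (adjusted p = 0.108). None of 20 elongation factor genes passed beside Tcea2, among them Ell at 0.17 ± 0.05 (adjusted p = 0.0697). Beside Ppif, none of 27 genes of the permeability transition and calcium uptake passed, where Spg7, a mitochondrial protease, was at -0.14 ± 0.04 (adjusted p = 0.058), and none of 25 cyclophilins and FK506-binding proteins did. The 11 splicing partners of Pqbp1, the 23 genes of cilia and Hedgehog signalling beside Rab34, the 18 carbonic anhydrases and bicarbonate transporters beside Car12 and the 16 genes of N-acylethanolamine and endocannabinoid metabolism beside Napepld likewise held no gene that passed in HT. Their median changes were -0.04, -0.01, -0.03 and -0.01. In WT none of these 11 lists held a passing gene either.

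Of the lists for pathways of lithium itself, only that of Wnt and beta-catenin held a gene that passed for lithium against vehicle. Of all tested genes 0.385% passed in HT and 0.0301% in WT. None of 22 genes of the direct targets and the inositol cycle passed against vehicle in HT or WT (against fluoxetine 2 were higher in WT), with Impa1, an inositol monophosphatase and target of lithium, at 0.07 ± 0.03 in HT and 0.08 ± 0.03 in WT. None of 20 lithium and sodium transporters and channels passed against either reference. Of 20 genes of Wnt and beta-catenin, 1 passed: Ctnnb1 fell by 16.5% in HT (log2 change -0.26 ± 0.04, adjusted p = 6.392e-05) and by 12.5% in WT (-0.19 ± 0.04, adjusted p = 0.0373), beside Ppp1r21 at -0.18 and -0.16. The WT call of Ctnnb1 was fragile too, since no gene at all passed with median centring, nor without any of 11 single libraries: lithium females 1 and 2, lithium males 1 and 4, vehicle females 1, 2, 4 and 5, and vehicle males 1, 4 and 5.

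Chromosomal neighbours were read as a check on reads shared between genes, since several of the 10 genes lie close to another gene. Slc35a2 lies 26 bases from Pqbp1 and was at 0.07 ± 0.05 in HT, the opposite sign. Timm17b lies 87 bases from Pqbp1 and was at -0.07 ± 0.06, and Armc10 lies 206 bases from Napepld and was at -0.06 ± 0.04. None of the 20 nearest tested neighbours passed for lithium against vehicle in HT, where 0.385% of all tested genes did. The smallest adjusted p in limma was 0.0796, for Zmiz1 beside Ppif (-0.14 ± 0.04). The kit keeps the strand, but no source used here states whether the counting used it. Reads from the opposite strand at any of the 10 genes can therefore not be told apart from theirs.

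Genes most like members of the 10 were taken from 12768 named genes whose mean was 50 or more. Over the deviations in 58 libraries, the closest likenesses were Basp1 with Ywhaz (r = 0.89), Tcea2 with Cdk10 (r = 0.88), Rab34 with Rtel1 (r = 0.79), Celf4 with Uri1 (r = 0.78) and Pqbp1 with Nsg2 (r = 0.75). Further pairs were Ung with Frzb (r = 0.67), Napepld with Rprd1a (r = 0.65), Ppp1r21 with Ufsp2 (r = 0.62) and Car12 with Bace1 (r = 0.60). Over the 12 group means the highest r lay between 0.89 and 0.96 for all 10 genes, from 12 points and a search of 12768 genes. Napepld was most like Ppp1r21 (r = 0.94), the only case in which the nearest gene was itself among the 10. The group means contain the lithium differences for which both genes were picked, so this likeness supports nothing. Over the same means Ppif was nearest to Ell (r = 0.94), Ppp1r21 to Ift46 (r = 0.95), Basp1 to Scg3 (r = 0.96), Celf4 to Ipcef1 (r = 0.95) and Tcea2 to Mthfsd (r = 0.94).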

How the data were processed

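Polyadenylated RNA of 58 prefrontal cortex libraries was sequenced with a stranded kit, per the labels' protocols. The deposited table of 18088 genes holds a scaled signal: each library's reads per gene, divided by the authors by its own size factor. The submitters' processing notes name DESeq2 1.19.11, Salmon 0.11.2, R 3.6.0 and GRCm38. Undoing the scaling gave whole reads for 100% of values (tolerance 0.0001), 22.9 to 35.0 M per library. Groups came from the sample titles. Here, limma 3.58.1 (R 4.3.3, mean-variance trend) was fitted to log2(value + 1) of 16606 genes (mean level 10 or more), with 12 group means and 46 residual degrees of freedom. Benjamini-Hochberg adjustment ran over all genes, with a threshold of 0.05. Such fold changes understate those of low genes. On recovered reads, edgeR 4.0.16 called all 10 genes for lithium against vehicle in HT. DESeq2 1.42.0, other pseudocounts, filters, scalings, covariates, a replicate block, each sex alone and each library left out were further alternatives. Scripts were tested on simulated data. The members and gene lists were chosen with earlier results of these data known. Named besides the members are the nearest gene in pattern (1 such result is not reported here), the chromosomal neighbours and the list genes of smallest p. Gene positions are from GENCODE M21 (GRCm38).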

Additional observations from a re-analysis of the deposited data

Results flagged for a closer look

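In 8 of 120 gene and group combinations, a library lay far from the others of its group, judged by its gap to the nearest library as a share of the group's range. Chance alone flags about 1 in 20 groups. Ppp1r21 in WT vehicle male 4 was at 2078.4, with the nearest male at 1877.0. Pqbp1 in WT lithium female 1 was at 1359.3 with the next at 1176.9, and in WT fluoxetine female 5 it was at 1369.2. Basp1 in WT lithium female 3 was at 10675.1, below the next at 12532.2.

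HT lithium male 1, which was rich in choroid plexus genes, was flagged for both Car12, at 609.7 with the next at 368.7, and Rab34, at 341.1 with the next at 440.5. Napepld was at 390.9 in HT lithium male 5, the highest of its group, and at 479.2 in WT fluoxetine male 1.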

How the results depend on the processing

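The numbers of the 10 genes that passed are compared here, and the cause of a change was not tested unless fewer libraries entered. For lithium against vehicle in HT (10 genes), 3 passed with only the groups compared, 5 with the choroid plexus covariate, 9 with median centring (not Tcea2) or without both libraries rich in choroid plexus genes (not Ung), and 0 in fits of females alone or males alone. For lithium against vehicle in WT (1), 2 passed with array weights, and 0 with median centring, with only the groups compared, with females or males alone and, an alternative chosen after seeing the data, without both libraries rich in choroid plexus genes. For lithium against fluoxetine in HT (6), 4 passed with the choroid plexus covariate or without both choroid-rich libraries, 8 with the olfactory or the leptomeninges covariate, and 0 in fits of females or males alone, where the model of all libraries called 2 in females and 1 in males. For lithium against fluoxetine in WT (2), 3 passed with array weights, the striatum covariate and without both choroid-rich libraries, Car12 replaced Rab34 with the choroid covariate, 1 passed with no filter on low values, with the leptomeninges covariate and with edgeR with and without a filter, and 0 with only the groups compared and with either sex alone. Fluoxetine against vehicle in WT (0) gave 1 with array weights, the olfactory covariate and DESeq2. HT against WT under fluoxetine (0) gave 2 with array weights and DESeq2. The difference of the lithium effect against fluoxetine between genotypes (0) gave 1 with array weights and the olfactory covariate. With single libraries left out the numbers ran from 6 to 10 for lithium against vehicle in HT, 0 to 1 in WT, 4 to 7 for lithium against fluoxetine in HT, 1 to 3 in WT, 0 to 1 for fluoxetine against vehicle in WT, 0 to 2 for HT against WT under fluoxetine and 0 to 1 for the difference against fluoxetine. Over all genes, lithium against vehicle called 64 in HT (0 with females alone to 183 with DESeq2) and 5 in WT (0 with median centring to 284 with array weights), and lithium against fluoxetine 324 in HT (0 to 591) and 802 in WT (0 to 1925). With single libraries left out these 4 ran from 25 to 84, 0 to 44, 210 to 482 and 342 to 1498. Counts for the other comparisons also moved: fluoxetine against vehicle 0 in HT (0 to 18) and 61 in WT (0 to 859; 18 to 347 with single libraries left out), HT against WT 3 under vehicle (2 to 9), 165 under fluoxetine (5 to 593; 26 to 1109) and 2 under lithium (0 to 7), and the genotype difference of the lithium effect 0 against vehicle (0 to 4) and 1 against fluoxetine (0 to 40; 0 to 130). The highest of the last 3 came without WT fluoxetine male 1. Of the values of single genes under the alternatives, 5798 kept their side of the threshold and, if without a call, moved by at most the SE. A further 153 no longer passed, 44 passed newly, 55 without a call moved by more than the SE, and none that had passed changed sign. Values without a call could change sign within the SE and still count among the 5798. An example was Rab34 for lithium against vehicle in WT, at 0.02 in the main fit and -0.04 in males alone.

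Replicate numbers do not pair the samples in the labels, and the deviations of same-numbered libraries correlated between -0.66 and 0.71. With the replicate number as a block, 9 of the 10 genes passed for lithium against vehicle in HT, 1 in WT, 7 for lithium against fluoxetine in HT and 1 in WT. Precision was limited by depth chiefly for Ung, with a mean of 71.8 reads.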

Other observations

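In the list of cilia and Hedgehog genes beside Rab34, 2 genes passed for lithium against fluoxetine, while the list's median change was 0.01 in HT and 0.04 in WT. Ptch1, the receptor of Hedgehog ligands and itself a target of the pathway, was higher under lithium than under fluoxetine in HT (log2 change 0.40 ± 0.09, adjusted p = 0.00834) and in WT (0.33 ± 0.09, adjusted p = 0.0271). Gli1, a transcription factor and target of the pathway, was higher in HT (0.47 ± 0.13, adjusted p = 0.0474). These were 2 of the 23 genes of that list in HT and 1 of 23 in WT, where the background was 1.95% and 4.83% of all tested genes. Other lists held passing genes against fluoxetine as well, among them that of base excision repair in HT, with 2 of 20 genes higher. In WT, 2 of 15 genes of the FERRY and RAB5 list and 2 of 11 splicing partners of Pqbp1 were higher. Of 16 endocannabinoid genes, 2 were higher and 1 was lower in WT. Against vehicle in HT, Ptch1 was at 0.23 ± 0.09 and Gli1 at 0.31 ± 0.13 without passing.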
